A study of Homo sapiens with 12 samples.

Results

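DKK1 and other regulators of Wnt signalling were examined in the human multiple myeloma cell line MM.1S after 24 h of drug treatment. The genes were taken by name from a list of 10 (DKK1, FRZB, KREMEN1, LRP5, LRP6, CTNNB1, AXIN2, LEF1, TCF7L2 and FZD3), and 8 of them had a row that the platform annotation maps to the symbol, out of 14884 genes measured in all. CTNNB1 and TCF7L2 had none and were not analysed here. Each of the 8 genes had 1 row, so no choice between rows was needed.

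Total RNA was hybridised to 12 Affymetrix arrays, 3 in each of 4 groups. Controls were given vehicle. In PD the cells were treated with 500 nM pomalidomide, which makes the ubiquitin ligase subunit cereblon mark the lymphoid factors IKZF1 and IKZF3 for breakdown, plus 10 nM dexamethasone, a synthetic glucocorticoid. In FPD they were treated with 1 nM filanesib, which blocks the mitotic motor KIF11, plus pomalidomide and dexamethasone at the same doses. The F cells had 1 nM filanesib with 10 nM dexamethasone by their treatment label, whereas their title and the shared protocol name only F. No group had pomalidomide or dexamethasone alone, so their parts in the differences of PD and FPD from control cannot be told apart. FPD and F differ in pomalidomide alone if the treatment label of F holds, and in both drugs if its title does. All groups are the same cell line grown without other cells, and whether each array stands for its own culture is not stated in the labels. The p-values therefore rest on array-to-array spread alone, part or all of which may be technical.

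Wnt proteins bind a frizzled receptor together with a coreceptor, LRP5 or LRP6, at the cell surface. The bound receptors inhibit a cytoplasmic complex built around the scaffold AXIN, which otherwise marks beta-catenin for degradation, and beta-catenin then acts in the nucleus with TCF and LEF proteins. DKK1 is a secreted antagonist that binds LRP5 and LRP6, and KREMEN1 is a further receptor for it. In myeloma DKK1 is known as a product of the tumour cells that inhibits bone-forming osteoblasts.

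The 250 bases before the start of DKK1 and of LEF1 are shown because these 2 genes moved in opposite directions in PD and have a single entry in the RefSeq promoter table (GRCh38.p14), which holds 4 of the 8 genes. They lie at chr10:52314031-52314280 on the plus strand and at chr4:108166302-108166551 on the minus strand, and both are written 5′ to 3′ along the gene. Capitals mark matches, on either strand, to a TATA box (TATAAA), the core of a TCF/LEF site (CTTTGA) or a glucocorticoid receptor hexamer (AGAACA).
DKK1: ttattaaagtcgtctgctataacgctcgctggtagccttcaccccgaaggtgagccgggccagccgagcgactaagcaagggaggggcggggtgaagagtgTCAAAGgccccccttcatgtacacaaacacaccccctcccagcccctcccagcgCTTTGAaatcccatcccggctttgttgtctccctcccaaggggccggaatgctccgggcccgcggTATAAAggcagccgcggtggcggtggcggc
LEF1: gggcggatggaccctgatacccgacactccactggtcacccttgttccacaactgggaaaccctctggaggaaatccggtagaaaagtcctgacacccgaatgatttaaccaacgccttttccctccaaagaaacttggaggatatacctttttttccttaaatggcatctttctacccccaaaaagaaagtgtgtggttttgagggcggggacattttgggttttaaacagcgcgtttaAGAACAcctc

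The DKK1 window held 1 TATA box, 30 to 25 bases before the start. It held 2 matches to CTTTGA, at 149 to 144 bases on the minus strand and at 95 to 90 bases on the plus strand. Other forms of the TCF/LEF core were not searched. The LEF1 window held 1 glucocorticoid receptor hexamer, 10 to 5 bases before the start. Among 35116 windows of the same length in the table, 10.7% held a TATA box, 11.2% a TCF/LEF core and 12.4% a glucocorticoid receptor hexamer. The full palindromic glucocorticoid receptor site was in neither window and in 1 of the 35116. A match to letters is not a measured binding site, and the lack of one says only that these letters are not in this window. The windows of FRZB and LRP5 held none of the 4 motifs.

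Levels below are deposited log2 RMA values, and log2 changes are differences between the means of 2 groups. A gene was called changed where limma's test, adjusted by Benjamini and Hochberg over all 14884 genes, gave an adjusted p under 0.05. Array medians lay between 4.23 and 4.27, arrays of a group correlated at r = 0.988 to 0.992 across 53617 rows, and no 2 arrays held identical values. The plasma cell genes SDC1, IRF4, XBP1, CD38, SLAMF7 and MZB1 had means of 10.3 to 10.4 per control array, 10.3 in F, 9.95 to 10.0 in PD and 9.99 to 10.0 in FPD. Means per array ranged from 4.93 to 5.33 for 3 T cell markers, from 3.62 to 3.79 for 5 myeloid markers and from 3.01 to 3.38 for 3 stromal and bone markers, and none of these genes was called in any comparison. Of 4 epithelial markers 3 were measured, with means of 5.86 to 6.35 per array and no call. KRT18 was the highest of the 3, with a mean of 7.59 over all arrays and a value of 8.30 on PD replicate 3. Of the 6 plasma cell genes 2 fell in PD and in FPD against control, IRF4 (-1.23 in PD, limma adjusted p = 2.2e-07) and SLAMF7 (-0.48 in PD, limma adjusted p = 0.000877). CD38 was called besides these 2 in PD against F (-0.47, limma adjusted p = 0.00381), and SDC1, XBP1 and MZB1 were not called, with differences of -0.03, 0.06 and -0.07 in PD against control. KIF11, the target of filanesib, lay at 10.21 ± 0.04 in control and 10.48 ± 0.13 in F (SD, n = 3, limma adjusted p = 0.702). Its F arrays lay above the control arrays (limma unadjusted p = 0.0145), and it was lower in PD than in F (-0.38, limma adjusted p = 0.0129). The RNA level of KIF11 does not measure whether the motor was blocked. The part of these shifts in the Wnt results was not tested. The glucocorticoid-responsive gene DDIT4 lay at 5.99 ± 0.08 in control, 5.97 ± 0.11 in F, 10.45 ± 0.01 in PD and 10.61 ± 0.02 in FPD (mean ± SD, n = 3). FKBP5, a further glucocorticoid-responsive gene, lay at 5.57 ± 0.03, 5.74 ± 0.30, 7.06 ± 0.12 and 7.25 ± 0.04 in the same order. F differed from control by -0.03 for DDIT4 (limma adjusted p = 0.978) and by 0.18 for FKBP5 (limma adjusted p = 0.902), where F replicate 1 (6.09) lay above the other F arrays (5.56 and 5.58).

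DKK1, the secreted antagonist, was the member that moved most. Its transcript cluster, 16705011, gave log2 values of 4.60, 4.49 and 4.66 on the 3 control arrays and 4.34, 4.93 and 4.66 on the F arrays. The PD arrays gave 6.91, 6.97 and 7.12, and the FPD arrays 6.52, 6.80 and 6.94. The 6 PD and FPD arrays thus lay above all 6 control and F arrays, while control and F overlapped. DKK1 rose by a log2 change of 2.42 ± 0.14 (SE) in PD against control (95% interval 2.13 to 2.71, fc = 5.35, limma adjusted p = 1.4e-08) and by 2.17 ± 0.14 in FPD against control (1.88 to 2.46, fc = 4.50, limma adjusted p = 5.77e-08). RNA was taken from whole cultures, so more DKK1 RNA per cell and more cells that express it cannot be told apart. The control and F levels of DKK1 (4.34 to 4.93) lay just above the array medians, so they were not shown to be above background. If they were at background, the folds of 5.35 and 4.50 are lower bounds.

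The F arrays of DKK1 differed from control by 0.06 (95% interval -0.23 to 0.35, limma adjusted p = 0.966). FPD differed from PD by -0.25 (-0.54 to 0.04, limma adjusted p = 0.645), a difference of means that was not called although FPD replicates 1 and 2 lay below all PD arrays. The levels of DKK1 ran in the order control, F, FPD and PD. Of the 3 neighbouring pairs in this order, the pair F and FPD differed beyond the spread of the arrays (log2 change 2.11, limma adjusted p = 6.99e-08). PD and F, both of which carry dexamethasone by their treatment labels, differed by 2.36 (2.07 to 2.65, limma adjusted p = 1.84e-08). The departure from additivity, computed as the FPD mean less PD, less F, plus control, was -0.31 (-0.72 to 0.10, limma adjusted p = 0.896). Its meaning depends on whether F held dexamethasone, as does that of each difference from F. The comparisons of PD and of FPD with control share the 3 control arrays.

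**Figure D1:**
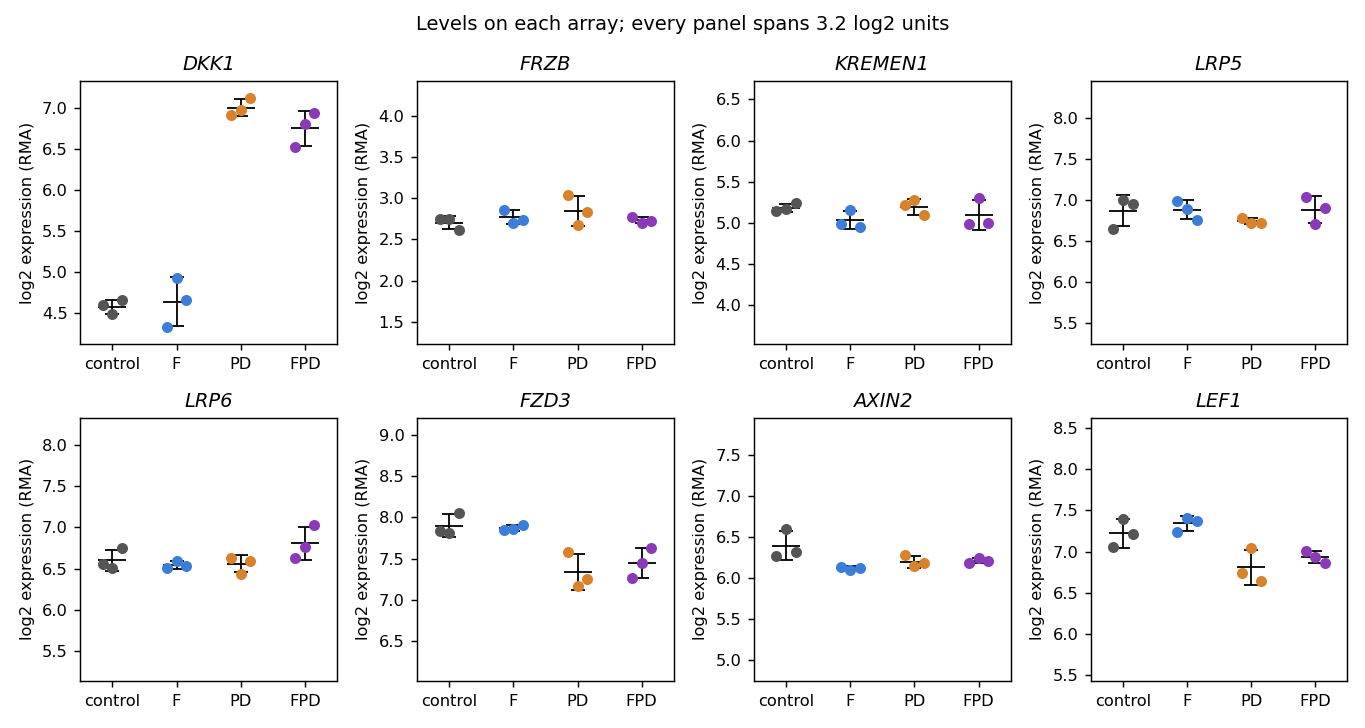
Deposited log2 RMA value (y axis) of each of the 8 genes on each of the 3 arrays of the control, F, PD and FPD groups (x axis); points are arrays, and bars show the mean ± SD of a group. DKK1 lies between 6.52 and 7.12 on the PD and FPD arrays and between 4.34 and 4.93 on the others, whereas FZD3 and LEF1 lie lower in PD than in control and the other panels show overlapping or nearly overlapping groups.

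Counted over the 8 genes in PD against control, 1 rose (DKK1) and 2 fell (FZD3 and LEF1). This is 37.5% of the members beside 15.5% of all genes tested (6.84% of all genes rose and 8.63% fell). The 8 genes were chosen with earlier results of these data known, DKK1 among them. Their shares are therefore no test of the members against all genes. The median log2 change was -0.085 over the 8 genes and -0.0027 over all genes. In FPD against control 1 rose (DKK1) and 1 fell (FZD3), beside 13.1% of all genes called (7.26% rose and 5.89% fell), and the median was -0.038 over the 8 and -0.016 over all genes. The arrays of PD and control did not overlap for 3 of the 8 genes, beside 29% of all genes, and those of FPD and control for 4 of the 8, beside 29.9%.

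FRZB encodes a secreted frizzled-related protein that binds Wnt ligands. It lay between 2.62 and 3.04 on all 12 arrays, below the array median on each of them, so it was not shown to be above background in any group. Its log2 change in PD was 0.14 (95% interval -0.07 to 0.35, limma adjusted p = 0.421). The transcript cluster of KREMEN1, 16928716, lay between 4.95 and 5.30. This is below the median gene mean (5.39), so KREMEN1 was not shown to be above background either. KREMEN1 differed from control by 0.01 in PD (-0.21 to 0.23, limma adjusted p = 0.961), by -0.15 in F (-0.37 to 0.07, limma adjusted p = 0.902) and by -0.09 in FPD (-0.31 to 0.13, limma adjusted p = 0.678). The sign of the value in PD turned when arrays were scaled again. No neighbouring pair in the order of group means was called for FRZB or for KREMEN1.

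The coreceptor genes that DKK1 acts on, LRP5 and LRP6, were not called in any comparison. LRP5 lay between 6.65 and 7.04 on the 12 arrays, and the ranges of control (6.65 to 7.01), F (6.76 to 6.99), PD (6.72 to 6.79) and FPD (6.71 to 7.04) overlapped. Its log2 change was -0.13 in PD (95% interval -0.36 to 0.11, limma adjusted p = 0.553) and 0.01 in FPD (-0.22 to 0.25, limma adjusted p = 0.963), the latter with a sign that turned when arrays were quantile normalized again.

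LRP6 gave 6.56, 6.50 and 6.75 in control, 6.50, 6.60 and 6.53 in F, 6.63, 6.44 and 6.60 in PD, and 6.63, 6.76 and 7.03 in FPD. All FPD arrays lay above the F arrays, and FPD replicate 3 was the highest of the 12. FPD exceeded F by 0.26 (95% interval 0.03 to 0.49, limma adjusted p = 0.14) and PD by 0.25 (0.02 to 0.48, unadjusted p = 0.0374, limma adjusted p = 0.539). Neither difference passed the test over all genes. Without FPD replicate 3 the difference from PD was 0.14 (limma adjusted p = 0.923).

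FZD3, a frizzled receptor gene (transcript cluster 17067410), fell in PD and FPD, which both held pomalidomide and dexamethasone. It gave 7.84, 7.81 and 8.06 in control and 7.85, 7.85 and 7.91 in F, against 7.58, 7.17 and 7.25 in PD and 7.27, 7.45 and 7.63 in FPD. All 6 PD and FPD arrays lay below all control and F arrays. FZD3 fell by 0.57 on the log2 scale in PD against control (SE 0.12, 95% interval -0.82 to -0.31, 1.48-fold lower, limma adjusted p = 0.00357) and by 0.45 in FPD against control (-0.71 to -0.20, 1.37-fold lower, limma adjusted p = 0.0185). The F arrays differed from control by -0.03 (-0.28 to 0.23, limma adjusted p = 0.984).

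The FZD3 call in PD held when any 1 array was left out (limma adjusted p up to 0.0223). The call in FPD against control ended on leaving out FPD replicate 1 (limma adjusted p = 0.098), FPD replicate 2 (0.0529) or control replicate 3 (0.081), and when p-values were adjusted over all rows (0.0668). FZD3 was also lower in FPD than in F (-0.42, limma adjusted p = 0.0252), a call lost without F replicate 1 (0.0504), F replicate 2 (0.0649), F replicate 3 (0.0808), FPD replicate 1 (0.128) or FPD replicate 2 (0.0655), and over all rows (0.0837). In the order PD, FPD, F and control, only the pair FPD and F passed the test. FPD differed from PD by 0.11 (95% interval -0.14 to 0.37, limma adjusted p = 0.822).

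AXIN2 encodes a scaffold of the complex that degrades beta-catenin and is itself widely used as a readout of Wnt signalling. It gave 6.27, 6.60 and 6.31 in control, where replicate 2 was the highest of the 12 arrays. F gave 6.14, 6.10 and 6.12, PD 6.28, 6.14 and 6.18, and FPD 6.19, 6.25 and 6.20. The F and FPD arrays lay below all control arrays, and the PD arrays overlapped them. The difference from control was -0.28 in F (95% interval -0.48 to -0.07, unadjusted p = 0.0112, limma adjusted p = 0.702), -0.20 in PD (-0.40 to 0.01, limma adjusted p = 0.209) and -0.18 in FPD (-0.39 to 0.02, limma adjusted p = 0.271), so none passed the test over all genes. Without control replicate 2 the values were -0.17, -0.09 and -0.08.

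LEF1 encodes a transcription factor that binds DNA with beta-catenin, and its promoter window is the second shown above (transcript cluster 16978834). It gave 7.05, 7.40 and 7.21 in control and 7.23, 7.41 and 7.38 in F, against 6.74, 7.05 and 6.64 in PD and 7.005, 6.94 and 6.86 in FPD. All PD and FPD arrays lay below all control and F arrays, although control replicate 1 and PD replicate 2 almost met. LEF1 fell by 0.41 on the log2 scale in PD against control (SE 0.12, 95% interval -0.66 to -0.16, 1.33-fold lower, limma adjusted p = 0.0238). In FPD against control the difference was -0.29 (-0.53 to -0.04, limma adjusted p = 0.133) and in F 0.12 (-0.12 to 0.37, limma adjusted p = 0.922).

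The LEF1 call in PD depended on single arrays. Leaving out control replicate 2 raised the limma adjusted p to 0.117, and leaving out PD replicate 3 to 0.108. Leaving out PD replicate 1 gave 0.0791 and control replicate 3 gave 0.0552. The call was also lost with the 2 compared groups fitted alone (0.0684) and over all rows (0.0732). LEF1 was lower in PD than in F (log2 change -0.53, 95% interval -0.78 to -0.29, limma adjusted p = 0.00403), and this call held when any 1 array was left out (limma adjusted p up to 0.0249). It was lower in FPD than in F (-0.41, limma adjusted p = 0.027), a call lost without F replicate 2 (0.103), F replicate 3 (0.0835), FPD replicate 2 (0.0683) or FPD replicate 3 (0.101), and over all rows (0.0854). In the order PD, FPD, control and F no neighbouring pair was called. The antisense transcript LEF1-AS1 has a row of its own, which lay at 4.31 ± 0.14 in control and 4.39 ± 0.03 in PD (SD, n = 3, limma adjusted p = 0.668). These levels are near the array medians (4.23 to 4.27) and were not shown to be above background. LEF1-AS1 is named here after its values were seen.

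**Figure D2:**
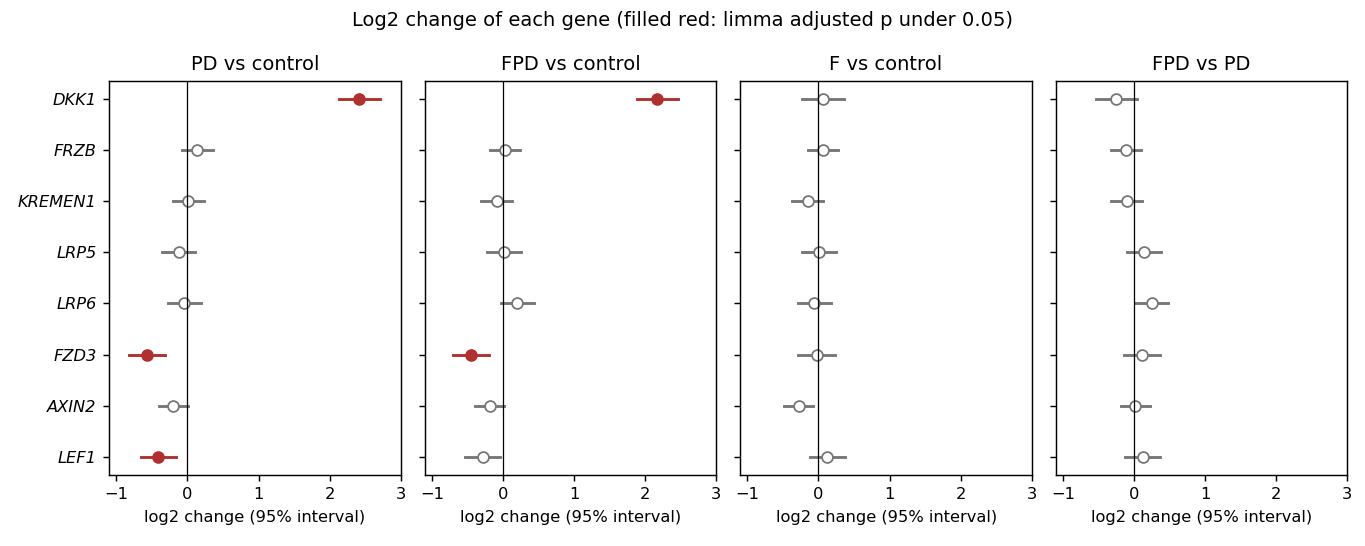
Log2 change (x axis, difference of group means) of each of the 8 genes (y axis) in 4 comparisons, 1 per panel, with horizontal lines for the 95% interval from limma and filled red points for an adjusted p under 0.05. DKK1 (2.42 in PD) and FZD3 (-0.57 in PD) are filled in both PD and FPD against control, LEF1 (-0.41) in PD alone, and no gene is filled in F against control or in FPD against PD.

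None of the 8 genes was called in FPD against PD, which differ in filanesib, or in F against control, which differ in filanesib and, by the treatment label of F, in dexamethasone. In F against control limma called 0 of 8 and 0.00672% of all genes, and 1 of 8 (AXIN2) and 6.01% of all genes had an unadjusted p under 0.05. In FPD against PD limma called 0 of 8 and 0.0336% of all genes, and 1 of 8 (LRP6) and 8.62% of all genes had an unadjusted p under 0.05. Fitting the variance with an intensity trend and robust estimation also called 0 of 8 in both. The 95% intervals of FPD against PD reached at most 0.54 in size, for DKK1. For the departure from additivity limma called 0 of 8 and 0% of all genes, and 1 member (AXIN2, 0.29, unadjusted p = 0.049, limma adjusted p = 0.888) and 5.6% of all genes had an unadjusted p under 0.05.

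In FPD against F, DKK1 rose and FZD3 and LEF1 fell, beside 14.1% of all genes called (7.5% rose and 6.64% fell). Over all genes 1117 were higher and 988 lower, and with the arrays centred on their medians 929 were higher and 1131 lower. The same 3 genes were called in these directions in PD against F, beside 17.3% of all genes (7.43% rose and 9.91% fell). In PD against F 1106 genes were higher and 1475 lower, and with the arrays centred 862 were higher and 1837 lower. In the centred arrays of PD and F, DKK1, FZD3 and LEF1 had log2 changes of 2.30, -0.59 and -0.59 and were called. The arrays did not overlap for 5 of the 8 genes in FPD against F, beside 30.3% of all genes, and for 4 of the 8 in PD against F, beside 30.9%.

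A wider list of 104 Wnt pathway genes, the members included, had 67 measured genes, and 1 of the 19 ligands (WNT2) was among them. This list was also chosen with earlier results known, so its shares are no test of the pathway. In PD against control 5 rose and 9 fell, or 20.9% of the 67 beside the 15.5% of all genes given above. The median log2 change was -0.00095 over the list and -0.0027 over all genes. DKK1 and the receptor gene FZD4 had the highest changes among called genes, and CCND2 and ZNRF3 the lowest. With the rows of a gene averaged CCND2 had -0.45 in PD against control and -0.50 in PD against F, and was then above FZD3 (-0.57 and -0.54) and no longer among the 2 lowest. In FPD against control 6 rose and 7 fell (19.4%, beside 13.1% of all genes). DKK1 and FZD4 were the highest and MYC and ZNRF3 the lowest. In FPD against F 5 rose and 7 fell (17.9%, beside 14.1% of all genes). DKK1 and FZD4 (1.72) were the highest and MYC (-0.72) and CCND1 (-0.70) the lowest. The 12 calls became 7 with p-values adjusted over all rows, 18 among genes above the median mean, and 8 without F replicate 2, FPD replicate 1 or FPD replicate 3. In PD against F 6 rose and 10 fell (23.9%, beside 17.3% of all genes). DKK1 and FZD4 (1.63) were the highest and CCND2 (-0.89) and ZNRF3 (-0.57) the lowest. In F against control and in FPD against PD limma called 0 of the 67 genes, beside 0.00672% and 0.0336% of all genes. At an unadjusted p under 0.05 there were 2 and 8 of the 67, beside 6.01% and 8.62% of all genes.

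Among 14 measured secreted antagonists only DKK1 was called in PD, beside 15.5% of all genes. The other 13, which include DKK2, DKK3, DKK4, the SFRP genes, SOST and WIF1, had log2 changes from -0.23 (SOSTDC1) to 0.19 (DKKL1), with a lowest limma adjusted p of 0.276. Of these 13, 6 lay below the array median on all 12 arrays and were not shown to be above background. WLS, which carries Wnt ligands to the cell surface for secretion, was the 1 measured gene of ligand secretion. It lay at 6.25, 6.09 and 6.18 in control, 6.11, 6.26 and 6.43 in F, 7.36, 7.37 and 7.38 in PD and 7.27, 7.31 and 7.33 in FPD. The PD and FPD arrays of WLS stood clear of the others, as did those of DKK1, and WLS rose in PD (1.20, fc = 2.30, limma adjusted p = 4.63e-07) and in FPD (1.13, fc = 2.19, limma adjusted p = 8.2e-07).

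The frizzled receptor genes did not move in 1 direction. All 10 were measured, and in PD 3 rose (FZD4, FZD6 and FZD8), 1 fell (FZD3) and 6 did not pass the test, beside 6.84% of all genes that rose and 8.63% that fell. FZD4 gave 5.18, 5.03 and 4.98 in control, 5.24, 4.97 and 4.53 in F, 6.57, 6.38 and 6.66 in PD and 6.34, 6.84 and 6.71 in FPD. It rose by 1.48 in PD (fc = 2.78, limma adjusted p = 1.1e-05) and by 1.57 in FPD (fc = 2.96, limma adjusted p = 6.87e-06), and its 6 PD and FPD arrays lay above the other 6. The control and F levels of FZD4 lay below the median gene mean (5.39) and were not shown to be above background. If they were at background, the folds of 2.78 and 2.96 are lower bounds. FZD8 rose by 0.48 in PD (limma adjusted p = 0.00726) and had a difference of 0.34 in FPD (limma adjusted p = 0.0567). FZD6 rose by 0.40 in both PD (limma adjusted p = 0.0128) and FPD (limma adjusted p = 0.0162). Its call in PD was lost without control replicate 3 (0.0603) or PD replicate 2 (0.0518), and in FPD without control replicate 1 (0.0524), control replicate 3 (0.0695) or FPD replicate 2 (0.0749).

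Of 9 R-spondin and receptor turnover genes 1 was called in PD and in FPD, beside 15.5% and 13.1% of all genes. It was ZNRF3, which encodes a ubiquitin ligase that removes frizzled receptors from the cell surface. It gave 6.25, 6.32 and 6.31 in control, 6.46, 6.17 and 5.66 in F, 5.52, 5.64 and 5.42 in PD and 5.59, 5.52 and 5.58 in FPD. F replicate 3 lay near the PD and FPD arrays and apart from the other F arrays. ZNRF3 fell by 0.76 in PD (1.70-fold lower, limma adjusted p = 0.00161) and by 0.73 in FPD (1.65-fold lower, limma adjusted p = 0.00268). Its difference of -0.57 between PD and F (limma adjusted p = 0.0117) was not called without F replicate 1 (0.0561) or PD replicate 3 (0.0501).

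Of 11 cytoplasmic genes 1 was called in PD and 1 in FPD, beside 15.5% and 13.1% of all genes. FBXW11, an adaptor of the ligase that ubiquitinates beta-catenin, fell in PD (-0.39, limma adjusted p = 0.0132). Leaving out control replicate 2 (0.0601) or PD replicate 3 (0.0644) ended this call. Its paralogue BTRC rose in FPD (0.41, limma adjusted p = 0.0382), but not without control replicate 1 (0.18), control replicate 2 (0.0623), FPD replicate 1 (0.0934), FPD replicate 2 (0.0522) or FPD replicate 3 (0.142). It was not called either with the replicate block (0.0572), with centred arrays (0.0554) or over all rows (0.117). Of 9 nuclear genes, LEF1 included, 2 fell in PD, beside 15.5% of all genes called. In FPD 1 rose and 1 fell, beside 13.1% called. Besides LEF1, PYGO1 fell in PD (-0.48, limma adjusted p = 0.00274), and it fell in FPD (-0.46, limma adjusted p = 0.00472). PYGO1 encodes a cofactor of beta-catenin. BCL9L rose in FPD (0.34, limma adjusted p = 0.0381), but the mean of its 2 rows gave 0.15 (limma adjusted p = 0.348). Its call was also lost without control replicate 1 (0.11), control replicate 2 (0.0765), control replicate 3 (0.0776), FPD replicate 1 (0.128) or FPD replicate 3 (0.157), and over all rows (0.0984).

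Among 5 further genes known as Wnt targets in other cells, 4 fell in both PD and FPD and SP5 was not called. Of all genes 8.63% fell in PD and 5.89% in FPD. AXIN2, the readout of Wnt signalling described above, is not among the 5 and was not called in PD (-0.20) or FPD (-0.18). The 5 were chosen with earlier results known, and Wnt signalling itself was not measured. CCND2, which encodes a cyclin of G1 phase, gave 10.30, 10.34 and 10.53 in control and 9.73, 9.68 and 9.46 in PD, with no overlap. It fell by 0.76 in PD (limma adjusted p = 0.00048) and by 0.47 in FPD (limma adjusted p = 0.0196), the latter call being lost without control replicate 3 (0.0799) or FPD replicate 2 (0.106) and over all rows (0.0722). The mean of the CCND2 rows gave -0.45 in PD (limma adjusted p = 0.0246). CCND1, a further G1 cyclin gene, fell by 0.49 in PD (limma adjusted p = 0.00558) and by 0.70 in FPD (limma adjusted p = 0.000415). The surface glycoprotein gene CD44 fell by 0.44 in PD (limma adjusted p = 0.00318) and by 0.37 in FPD (limma adjusted p = 0.0117, and 0.0526 without FPD replicate 1). MYC fell by 0.83 in FPD (1.78-fold lower, limma adjusted p = 8.57e-06) and by 0.52 in PD (limma adjusted p = 0.000574).

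**Figure D3:**
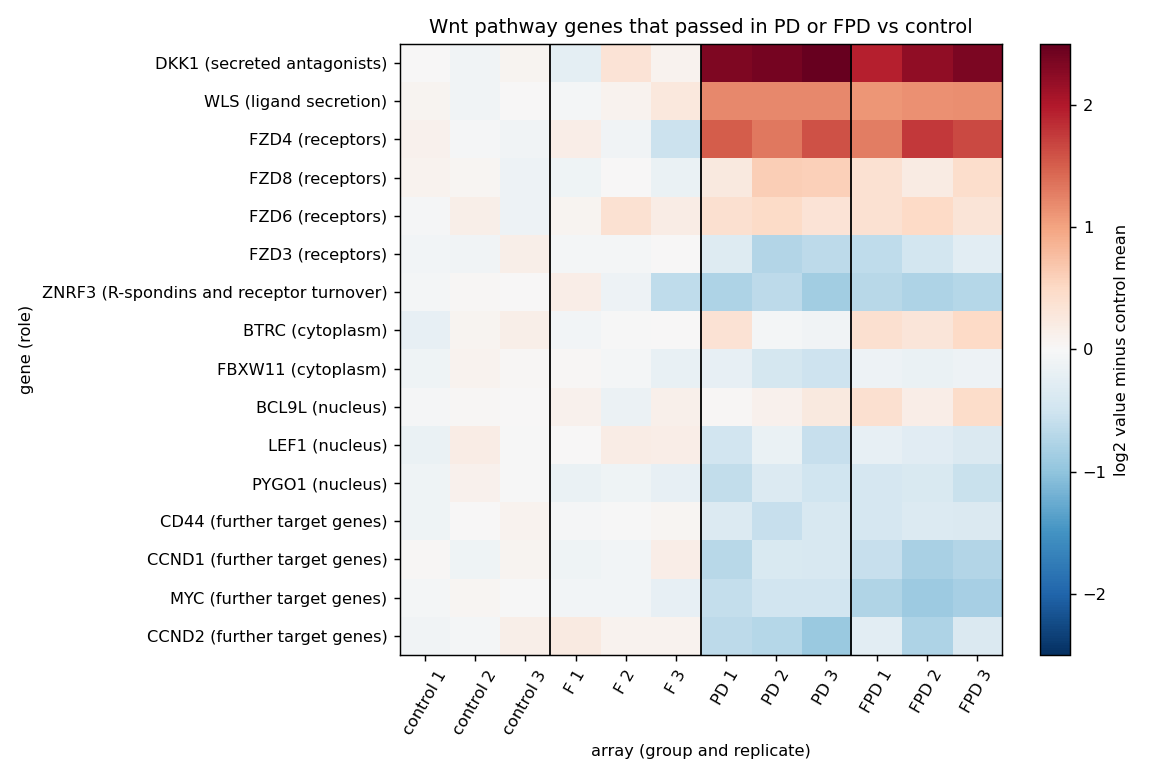
Log2 value minus the mean of the 3 control arrays (colour, red higher and blue lower) on each of the 12 arrays (x axis) for the genes of the wider Wnt list that passed the test in PD or FPD against control (y axis, with their role). DKK1 (2.42 in PD), FZD4 (1.48) and WLS (1.20) form the red rows of PD and FPD, most other rows are paler, and the control and F columns are mostly near 0 except for F replicate 3 in ZNRF3 and FZD4.

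The genes nearest to DKK1 in pattern were found by the root mean square distance over the 12 arrays, after each gene was centred on its control mean. They were the surface protein gene CD109 (distance 0.21 on the log2 scale), the membrane endopeptidase gene MME (0.22), the fatty acyl-CoA reductase gene FAR2 (0.23), the leukotriene receptor gene CYSLTR1 (0.28) and CAPN6 (0.32). None of these 5 is in the Wnt list. Their log2 changes in PD were 2.48, 2.27, 2.38, 2.69 and 2.36, and in F they lay between -0.13 for FAR2 and 0.22 for MME. CD109 has 2 rows, and their mean gave 1.39 in PD. The distance weighs the size of a change, so a gene that follows the same groups by a smaller amount, as WLS and FZD4 did, is not near by this measure.

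**Figure D4:**
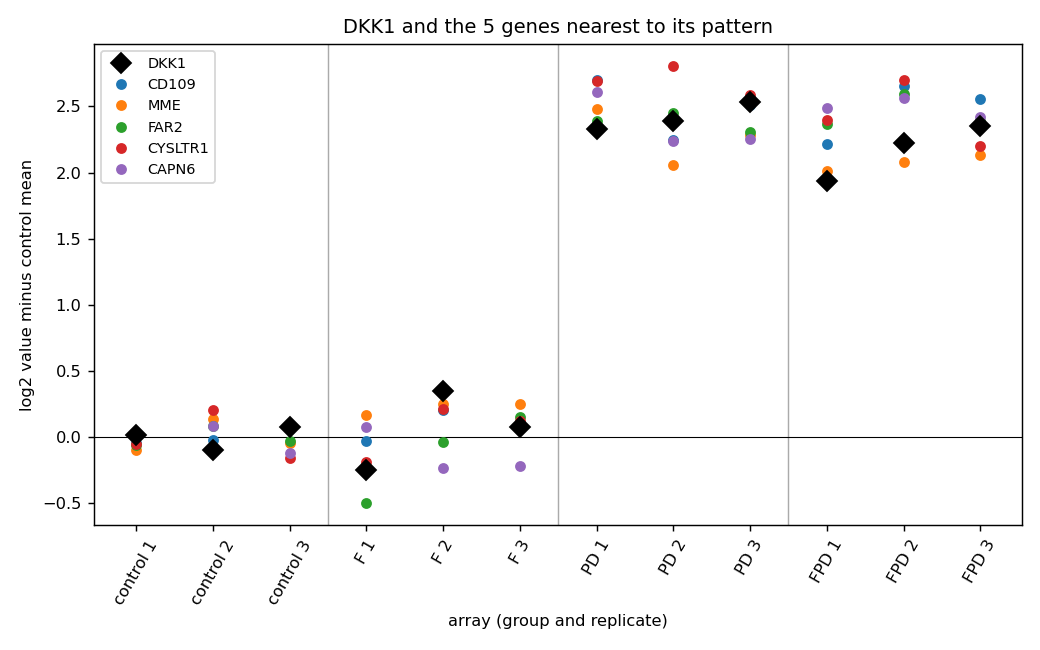
Log2 value minus the mean of the control arrays (y axis) on each of the 12 arrays (x axis) for DKK1 (black diamonds) and the 5 genes nearest to it in pattern (coloured circles). The 6 genes lie between -0.16 and 0.21 on the control arrays, between -0.50 (FAR2) and 0.35 (DKK1) on the F arrays, and between 1.94 and 2.81 on the PD and FPD arrays.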

How the data were processed

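The authors deposited log2 values; the submitters' processing notes name RMA in Affymetrix Expression Console. RMA subtracts background, forces 1 distribution on all arrays and gives each transcript cluster 1 value. This hides changes in total RNA per cell. Levels of different genes were set beside each other only for the cell type markers and against medians, as a rough guide. Versions, genome build and annotation are not given in the sources used here. Of 53617 rows, 16098 had 1 gene symbol in the platform annotation, 0 had several and 37519 had none, and these stay unnamed. All 14884 entrez identifiers were matched to RefSeq symbols. For 779 genes with several rows the brightest row on average was used, and no filter on expression was set.

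A limma model (version 3.58.1, R 4.3.3) held the 4 group means of all 12 arrays and left 8 residual degrees of freedom. Tests were two-sided, adjusted by Benjamini and Hochberg over all genes, with an adjusted p under 0.05 called. The script was tested on simulated data. Alternatives were averaged rows, genes above the median mean, all rows, 2 rescalings, compared groups alone, another variance model, a replicate block and leaving out each array. The 8 genes, the wider list and the motifs were chosen with earlier results of these data known, DKK1 among them. Genes named are the members, the 2 highest and 2 lowest called genes of the wider list in each comparison, the 5 nearest to DKK1, and DDIT4, FKBP5, IRF4 and KIF11 as checks. TSC22D3 had no row and was not analysed here. Other genes of the wider list are named where a role held few calls, after their values were seen. Promoter sequences are from RefSeq.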

Additional observations from a re-analysis of the deposited data

How the results depend on the processing

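The number of the 8 genes called in PD against control, PD against F, F against control and FPD against PD stayed within 1.5 times the reported one in all alternatives. It fell from 2 to 1 in FPD against control, and from 3 to 1 in FPD against F, with p-values adjusted over all rows of the table; leaving out 1 array gave 1 to 2 and 1 to 3. Over all genes, that adjustment called 1296 in place of 1956 in FPD against control and 1382 in place of 2105 in FPD against F. In F against control, 1 gene was called, against 0 when genes below the median mean were dropped, 4 with an intensity trend and robust variance, 0 with the replicate block and 0 to 2 without 1 array. In FPD against PD, 5 were called, and 0 with averaged rows, 20 above the median mean, 11 with arrays quantile normalized again, 8 with the 2 groups alone, 31 with the trend, 0 with the replicate block and 0 to 15 without 1 array. The replicate block changed no call of the 8 genes, while BTRC in FPD against control lost its call (adjusted p = 0.0572); same-numbered arrays did not deviate together (5 of 18 pairs correlated above 0.1, range -0.26 to 0.16), so the numbers were not used as pairs.

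No called value changed sign in any alternative. Among the 1098 alternative values of the 8 genes, 39 had the other sign, all for differences near 0 that were not called. With arrays quantile normalized again these were KREMEN1 in PD against control (-0.016), LRP5 in FPD against control (-0.021) and against F (-0.023), AXIN2 in FPD against PD (-0.0058) and LEF1 in the departure from additivity (-0.041). With arrays centred on their medians they were KREMEN1 in PD against control (-0.019), LRP5 in FPD against F (-0.025) and LRP6 in PD against F (-0.042). The others came from leaving out 1 array. In PD against control the range was -0.026 to 0.066 for KREMEN1 and -0.094 to 0.028 for LRP6. In F against control it was -0.083 to 0.21 for DKK1, -0.099 to 0.078 for LRP5, -0.11 to 0.015 for LRP6 and -0.073 to 0.051 for FZD3. In FPD against control it was -0.016 to 0.053 for FRZB and -0.095 to 0.10 for LRP5, and in FPD against PD -0.016 to 0.054 for AXIN2. In FPD against F it was -0.068 to 0.014 for FRZB, -0.044 to 0.12 for KREMEN1 and -0.074 to 0.093 for LRP5. In PD against F it was -0.017 to 0.16 for FRZB and -0.026 to 0.072 for LRP6, and for the departure from additivity -0.057 to 0.11 for KREMEN1 and -0.087 to 0.12 for LEF1. FRZB and KREMEN1 lie below the median gene mean (5.39) and had no value under that filter. The cause of these changes was not tested, and 3 arrays a group limit the precision.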
